A study of Homo sapiens with 6 samples.

Results

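The 45 genes described here encode the proteins that license origins of DNA replication and build the replication fork: the MCM helicase and its relatives MCM8 and MCM10, the origin recognition complex, the licensing factors CDC6 and CDT1 with their inhibitor geminin (GMNN), the CDC7 kinase, CDC45 and GINS, the sliding clamp and its loader, the replicative polymerases, replication protein A (RPA), and the enzymes that finish Okazaki fragments. They were chosen by symbol for their place in the pathway, with earlier results of these data known, and all 45 were found among the 22933 gene symbols of the expression table. For a symbol with several rows, the row with the most RefSeq names was taken, and then the row with the highest summed FPKM. FPKM corrects fragment numbers for library size and for how long a transcript is, so levels of different genes can be set side by side.

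RNA was sequenced from PC-3 cells, an established epithelial line derived from a bone metastasis of a prostate adenocarcinoma, in 2 groups of 3 samples. All cells carried the reverse tetracycline transactivator rtTA2 from a pRetroX-Tet-On-Advanced retrovirus, and all received 300 ng/ml doxycycline (Dox) for 4 h. Cells of the tdTom group carried a second retrovirus with the red fluorescent protein tdTomato behind the PGK promoter. Cells of the group labelled TTP-tdTom carried the same construct with tristetraprolin (TTP), an RNA-binding protein that delivers mRNAs to decay, under the Dox-responsive Tight promoter. No samples without Dox were analysed here, and nothing in the labels says that the numbered samples came from separate cultures. The table gives the authors' own FPKM for each group, 1 value per gene, so no spread between samples could be computed from these values and no test was run here. The columns of the authors' own test were not used, and the differences below are not set against replicate error. The labels give only the depth that was aimed at, and the depth reached is unknown because FPKM keeps no read counts.

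Before a cell enters S phase, the origin recognition complex, CDC6 and CDT1 load the MCM2 to MCM7 ring onto DNA, which licenses the origin. The CDC7 kinase then acts on the ring, CDC45 and GINS join it to form the active helicase, and the polymerases, clamp and clamp loader assemble behind it. Geminin binds CDT1 and blocks a further round of licensing, and many of these genes are transcribed under E2F control as cells approach S phase.

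The epithelial keratins KRT8 (20.9 FPKM in tdTom and 19.1 in the group labelled TTP-tdTom) and KRT18 (98.2 and 91.5) and the epithelial adhesion gene EPCAM (15.1 and 16.8) were present. CDH1, which encodes E-cadherin, was at 0.119 and 0.390. The prostate luminal gene KLK3 was at 1.12 and 0.681. Of 6 leukocyte, endothelial and fibroblast markers, 5 lay under 1 FPKM in both groups, and the highest value was 1.38, for COL1A2 in the group labelled TTP-tdTom (listed at 0 in tdTom). ZFP36, the endogenous gene for TTP, was at 5.56 FPKM in tdTom and 5.54 in the group labelled TTP-tdTom. The table therefore does not show the labelled transgene, and every direction below rests on the label. Whether reads of the transgene could be counted at ZFP36 was not tested.

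TTP binds UAUUUAU and related AU-rich elements in 3′UTRs. The heptamer was searched for each gene in 1 annotated 3′UTR, the longest among the GENCODE 29 transcripts that carry the row's RefSeq names, or the symbol where none did (RFC5 and RPA1), and it was found in 9 of the 45 genes. The sites below are those of the 2 of these genes that were at least 1.5-fold lower in the group labelled TTP-tdTom (ORC6 and MCM8), of the 2 with the next lowest ratios (CDC45 and CDC6), and of the 3 whose ratio was above 1 (ORC4, POLA2 and POLD3), so that sites with and without a lower mRNA can be compared. Each is written 5′ to 3′ with up to 10 bases on either side, and the capitals mark UAUUUAU.
ORC6: uaauaaauguUAUUUAUauaugca
MCM8: aauaaaacuuUAUUUAUggacacuaaa
CDC45: augaccuucuUAUUUAUguaacuggcu
CDC6: auugugaauaUAUUUAUuuucaaguug
ORC4: aacauucuugUAUUUAUgugagacuug
POLA2: uauuuucuuuUAUUUAUuuauuuuguu
POLD3: ggcacacauuUAUUUAUaaauggaugu

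All of these windows lie in the 3′UTR part of the last exon, here with GRCh38 coordinates. The ORC6 site is in exon 7 of 7 at chr16:46698371-46698394 (plus strand) and the MCM8 site in exon 19 of 19 at chr20:5995120-5995146 (plus). The CDC45 site is in exon 19 of 19 at chr22:19520498-19520524 (plus) and the CDC6 site in exon 12 of 12 at chr17:40302891-40302917 (plus). The ORC4 site is in exon 14 of 14 at chr2:147935388-147935414 (minus). The POLA2 site is in exon 18 of 18 at chr11:65297640-65297666 (plus), and a second copy that overlaps it starts at base 385 of the 3′UTR, after the first at base 381. The POLD3 site is in exon 12 of 12 at chr11:74641758-74641784 (plus). MCM10 held 2 copies and RPA1 held 1. The expression table itself uses GRCh37, and the loci given below are in that build.

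All 45 genes were expressed, with at least 1 FPKM in at least one group and more than 0 in both. In the group labelled TTP-tdTom 6 of them were at least 1.5-fold lower than in tdTom (GMNN, ORC6, MCM8, RFC3, RFC5 and RPA3), and 0 were at least 1.5-fold higher. That is 13.3% of the genes, beside a background of 22.8% of the 13004 expressed symbols that were at least 1.5-fold lower and 3.9% that were higher. Among the 8574 symbols whose mean FPKM fell in the range of these genes (4.16 to 370.9), 25.1% were at least 1.5-fold lower and 0.548% higher. When ratios were centred on the median of all symbols, 3 of the 45 (ORC6, GMNN and RPA3) were at least 1.5-fold lower, beside 13.6% of all symbols, and MCM8, RFC3 and RFC5 were not. At a 2-fold threshold 1 of the 45 genes was lower (RPA3) and 0 were higher, beside 8.65% and 2.45% of expressed symbols. RPA3 fell short of 2-fold in its row with the highest FPKM (log2 ratio −0.32) and when its rows were summed (−0.89). The row used for RPA3 is shared with the non-coding LOC729852. Without RPA3, 5 of 44 genes (11.4%) were at least 1.5-fold lower and 0 were at least 2-fold lower. The median log2 ratio of the group labelled TTP-tdTom over tdTom was −0.17 for the replication genes and −0.23 for all expressed symbols. The ratio was below 1 for 37 of the 45 genes (82.2%, beside 78.5% of all expressed symbols) and above 1 for 8, but when ratios were centred 25 of the 45 lay above the median of all symbols. The interquartile range of the log2 ratios was 0.36 for the replication genes and 0.51 for all symbols, and 57.8% of the replication genes (26) were within 1.2-fold of tdTom against 44.9% of all symbols. In a bulk sample, fewer cells with a transcript and less of it per cell cannot be told apart.

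**Figure D1:**
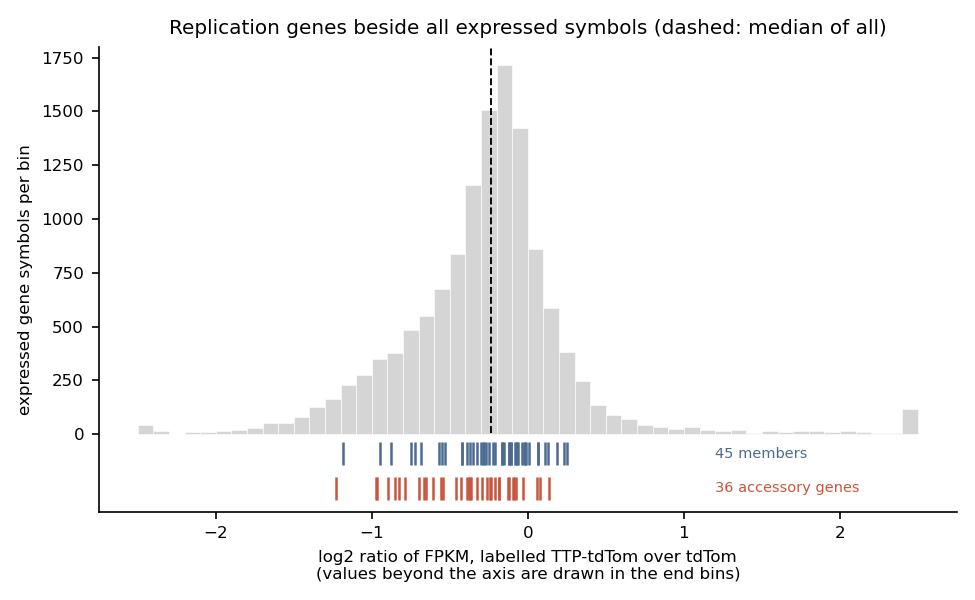
Histogram of the log2 ratio of FPKM (x axis, bins of 0.1) over the 13004 expressed gene symbols (y axis, symbols per bin), with a tick for each of the 45 replication genes and of the 36 accessory replication genes below it. The dashed line is the median of all symbols at −0.23, and the replication genes run from −1.19 to 0.25.

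The MCM2 to MCM7 ring unwinds the parental DNA, and 5 of its 6 mRNAs were within 1.2-fold of tdTom. MCM2 (chr3:127317253-127341278) was at 19.7 FPKM in tdTom and 17.7 in the group labelled TTP-tdTom, a log2 ratio of −0.15. MCM3 was at 38.6 and 40.4 (0.07), and MCM5, the subunit with the lowest FPKM of the ring, at 11.2 and 10.4 (−0.11). MCM6 was at 28.6 and 26.3 (−0.12) and MCM7 at 22.3 and 22.0 (−0.02). MCM4 stood apart from the other five, at 51.8 FPKM in tdTom and 38.7 in the group labelled TTP-tdTom (−0.42), which is 74.7% of the tdTom level and short of 1.5-fold. The ring's median log2 ratio was −0.11, and 0 of its 6 genes passed 1.5-fold. Of all expressed symbols, 22.8% were at least 1.5-fold lower and 3.9% higher. The 3′UTRs of all 6 lacked UAUUUAU.

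The MCM relatives are not part of that ring. MCM8, a helicase of homologous recombination (chr20:5917884-5983051), was at 23.0 FPKM in tdTom and 14.3 in the group labelled TTP-tdTom, so that 62.3% of the tdTom level was left (log2 ratio −0.68). It did not pass when ratios were centred (−0.45). It was the gene just inside the 1.5-fold threshold, with CDC45 (−0.57), LIG1 (−0.55) and GINS1 (−0.53) just outside. TRMT6, which lies in the same locus span, was at 40.0 and 29.2 (−0.45). MCM10, a scaffold that helps to start unwinding and holds 2 heptamers, was at 6.80 and 5.59 (−0.28).

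In the origin recognition complex, ORC6 alone of the 6 subunits was at least 1.5-fold lower, beside 22.8% of all expressed symbols. ORC6, the smallest subunit of the complex (chr16:46723558-46732311), was at 36.8 FPKM in tdTom and 20.0 in the group labelled TTP-tdTom, which left 54.4% of the tdTom level (log2 ratio −0.88). Of all expressed symbols, 12.0% had a lower ratio. The other subunits spread on both sides of the median of all symbols. ORC2 was at 40.9 and 30.5 (−0.42), and ORC3 at 13.2 and 11.1 (−0.25). ORC1, the large ATPase subunit whose level follows the cell cycle, was at 5.68 and 5.53 (−0.04), and ORC5 at 11.4 and 10.8 (−0.07). ORC4, another ATPase subunit, had the highest FPKM of the complex and was at 70.9 in tdTom and 77.7 in the group labelled TTP-tdTom (0.13). Its 3′UTR of 5113 bases, the longest of the 45, holds a heptamer, as does that of ORC6. The log2 ratios of the complex spanned 1.01. In the span of ORC4, ACVR2A was at 4.02 and 3.22 (−0.32) and MBD5 at 13.6 and 12.1 (−0.16).

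The licensing factors and their inhibitor had the widest spread of any role, at 1.13 log2 units. GMNN (chr6:24775159-24786329), the inhibitor of relicensing, was at 75.0 FPKM in tdTom and 38.9 in the group labelled TTP-tdTom, so that 51.8% of the tdTom level was left (log2 ratio −0.95). Of all expressed symbols, 10.0% had a lower ratio. CDT1, the licensing factor that geminin binds, was at 17.5 and 19.9 (0.18). The FPKM of GMNN was 4.28 times that of CDT1 in tdTom and 1.95 times in the group labelled TTP-tdTom, a ratio that rescaling of the groups leaves as it is. CDC6, the ATPase that loads the MCM ring together with CDT1, was at 15.1 and 11.5 (−0.39). The GMNN 3′UTR of 300 bases held no UAUUUAU, and 69.0% of its bases were A or U, beside a median of 58.2% for the 45 genes. That share was higher still in POLE2 (75.0%, log2 ratio 0.07) and PCNA (71.8%, −0.16), which did not pass 1.5-fold.

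**Figure D2:**
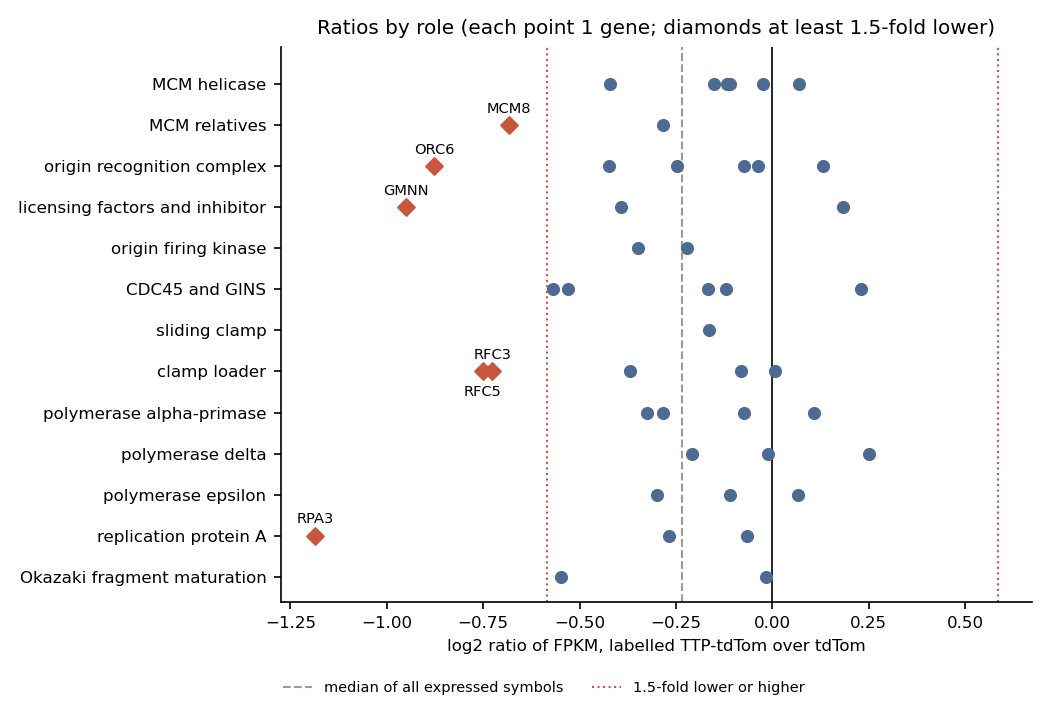
Log2 ratio of FPKM in the group labelled TTP-tdTom over tdTom (x axis) for each of the 45 genes, in rows by role, with dotted lines at 1.5-fold and a dashed line at the median of all expressed symbols (−0.23). The 6 diamonds at least 1.5-fold lower fall in 5 of the 13 roles, and no gene lies beyond the line on the right.

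Origin firing needs the CDC7 kinase and its activator DBF4, and then CDC45 and the 4 GINS subunits. CDC7 was at 6.04 FPKM in tdTom and 4.74 in the group labelled TTP-tdTom (log2 ratio −0.35), and DBF4 at 24.7 and 21.2 (−0.22). SLC25A40, in the same locus span as DBF4, was at 9.33 and 3.96 (−1.23). CDC45, which holds a heptamer 29 bases into a 3′UTR of 132 bases, was at 23.0 and 15.5, which left 67.4% (−0.57). The GINS subunits did not move as one. GINS1 was at 12.3 and 8.51, which left 69.3% (−0.53), while GINS3 was at 5.87 and 6.89 (0.23). GINS2 was at 26.2 and 24.2 (−0.12), and GINS4 at 6.47 and 5.76 (−0.17). Whether the subunits of this complex differ from one another could not be tested with 1 value per group.

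PCNA, the sliding clamp that tethers polymerases to DNA, had by far the highest level of the 45 genes. It was at 391.9 FPKM in tdTom and 349.9 in the group labelled TTP-tdTom (log2 ratio −0.16), and 98.8% of expressed symbols were lower in tdTom. Of the 5 subunits of its loader, replication factor C, 2 were at least 1.5-fold lower, beside 22.8% of all expressed symbols. When ratios were centred 0 were, beside 13.6%. RFC3 (chr13:34392083-34540695) was at 21.0 and 12.7, which left 60.5% (−0.73). RFC5 (chr12:118454506-118498951) was at 46.4 and 27.6, which left 59.4% (−0.75). The other small subunits were close to their tdTom level, with RFC2 at 32.9 and 31.1 (−0.08) and RFC4 at 52.8 and 53.1 (0.01). RFC1, the large subunit that opens the clamp, was at 39.3 and 30.4 (−0.37). WSB2, in the span of RFC5, was at 13.6 and 8.91 (−0.61), and the translation factor gene EIF4A2, in the span of RFC4, was at 56.9 and 29.3 (−0.96). SNORA63, a small nucleolar RNA in the span of RFC4, was at 139.1 and 258.4 (0.89), while the row shared by SNORA81 and MIR1248 in that span was at 5.85 and 1.18 (−2.31). In the span of MCM7, AP4M1 was at 2.45 and 3.47 (0.50) and CNPY4 at 15.1 and 17.1 (0.17), while COPS6 was at 83.7 and 68.7 (−0.28) and TAF6 at 6.51 and 5.82 (−0.16). The 5 loader 3′UTRs held no UAUUUAU.

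**Figure D3:**
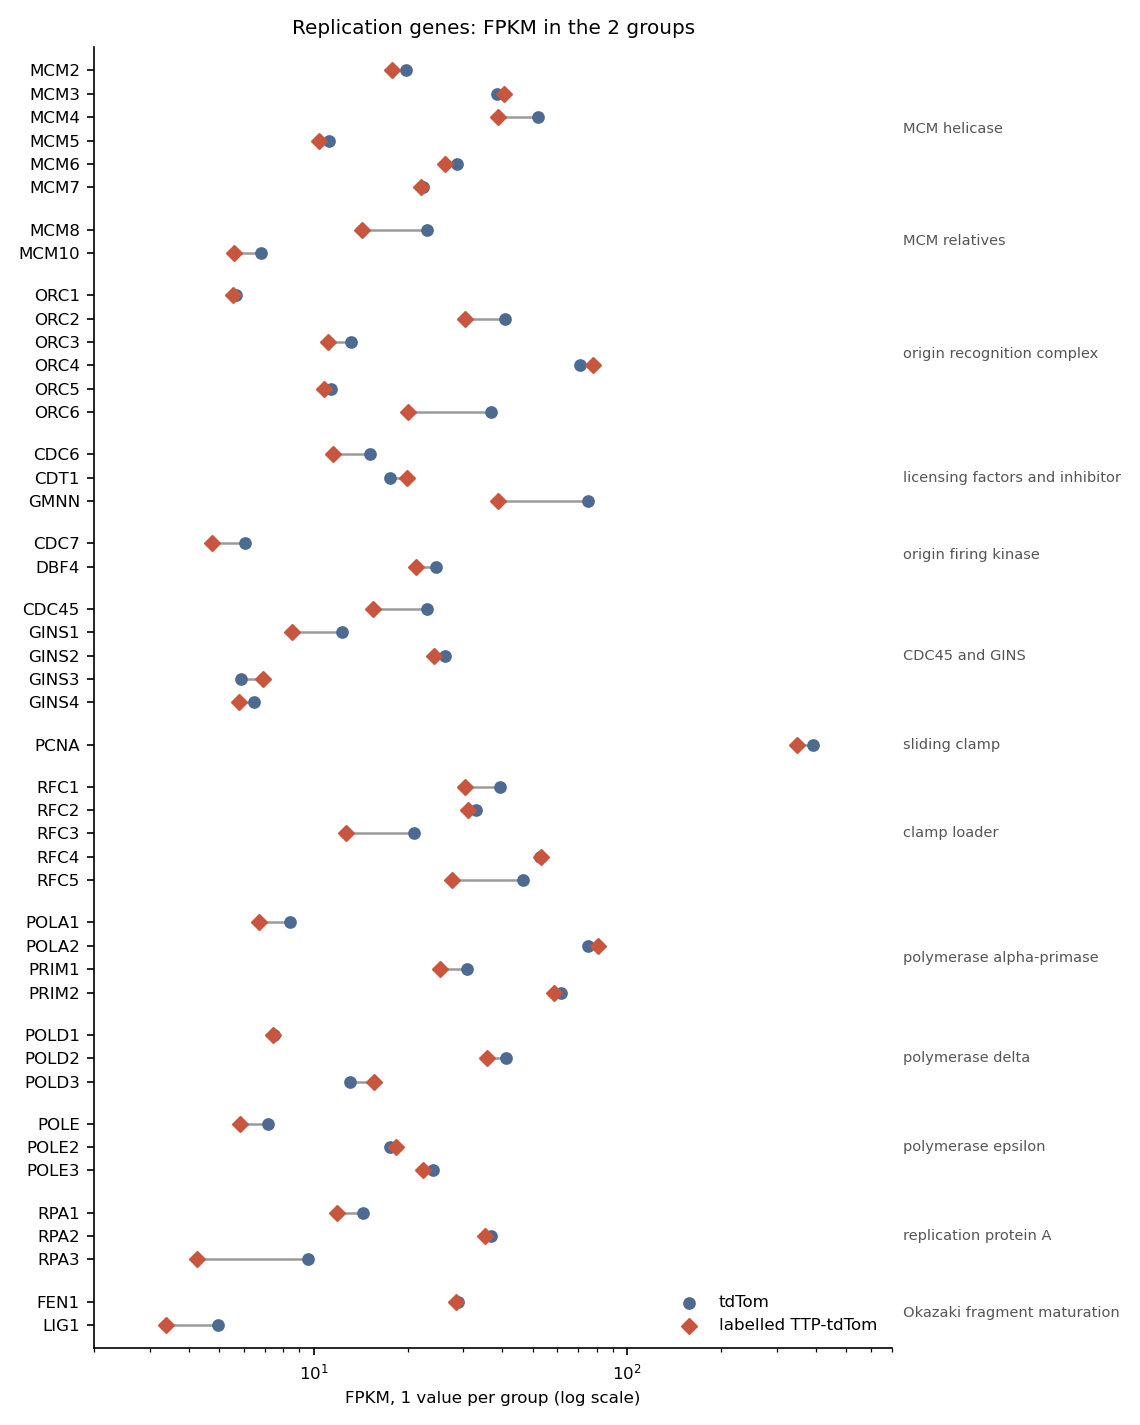
FPKM of each of the 45 genes in tdTom (circles) and in the group labelled TTP-tdTom (diamonds) on a log axis, 1 value per group, ordered by role. Levels run from LIG1 at 4.94 to PCNA at 391.9 FPKM in tdTom, and the longest bars between the groups belong to RPA3, GMNN, ORC6, RFC5, RFC3 and MCM8.

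Of the 10 polymerase genes 0 passed 1.5-fold, beside 22.8% lower and 3.9% higher among all expressed symbols. In polymerase alpha-primase, which lays down the RNA-DNA primer, the catalytic subunit POLA1 was at 8.38 FPKM in tdTom and 6.69 in the group labelled TTP-tdTom (log2 ratio −0.33), and the regulatory subunit POLA2 at 75.0 and 80.9 (0.11). POLA2 thus had 8.95 times the FPKM of POLA1 in tdTom and 12.1 times in the group labelled TTP-tdTom. The primase subunits were at 30.8 and 25.3 for PRIM1, the catalytic one (−0.28), and at 61.5 and 58.5 for PRIM2 (−0.07). In polymerase delta, which extends the lagging strand, the catalytic subunit POLD1 was at 7.48 and 7.42 (−0.01). Its accessory subunit POLD2 was at 41.1 and 35.6 (−0.21). POLD3, another accessory subunit, was at 13.1 and 15.6 (0.25), the highest ratio of the 45 genes, with a heptamer in its 3′UTR. In polymerase epsilon, the leading-strand enzyme, the catalytic subunit POLE was at 7.15 and 5.82 (−0.30), POLE2 at 17.5 and 18.4 (0.07), and POLE3 at 24.1 and 22.3 (−0.11). Among these 10 genes, POLA1, POLD1 and POLE each had the lowest FPKM of their complex in both groups.

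Replication protein A coats single-stranded DNA at the fork. Its large subunit RPA1 was at 14.4 FPKM in tdTom and 11.9 in the group labelled TTP-tdTom (log2 ratio −0.27), and RPA2 at 36.7 and 35.1 (−0.06). The row used for the small subunit RPA3 had the lowest ratio of the 45 genes, at 9.63 and 4.23, which left 43.9% (−1.19). GMNN came next (−0.95). The value of RPA3 depended on the row, and 8 rows of the table carry its symbol over the same span (chr7:7676345-8007653). The row used, with the most RefSeq names, is shared with the non-coding LOC729852. Whether its ratio is that of RPA3 mRNA or of LOC729852 was not tested. The row with the highest FPKM, which carries RPA3 alone, was at 12.6 and 10.1 (−0.32), short of 1.5-fold. Summed over the 8 rows, the shared row included, RPA3 was at 38.0 and 20.6 (−0.89). One of the rows is listed at 0 in the group labelled TTP-tdTom and another at 0 in tdTom. GINS4, POLA1, POLA2 and POLE2 had 2 rows each, and the row not used was at no more than 2.53 FPKM in either group.

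**Figure D4:**
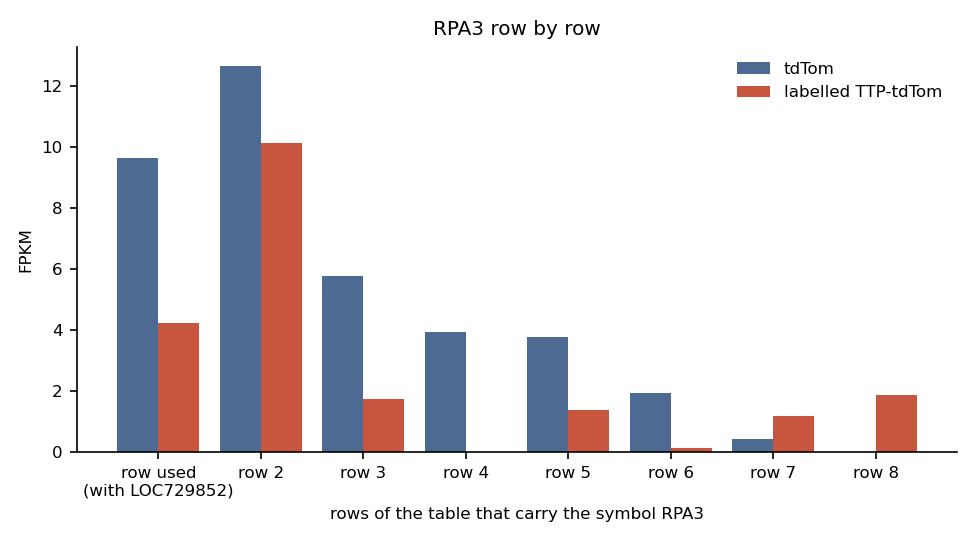
FPKM of the 8 table rows that carry the symbol RPA3 (x axis), in tdTom and in the group labelled TTP-tdTom, 1 value per group. Bars are lower in the group labelled TTP-tdTom in 6 of the 8 rows, by amounts that differ between rows.

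Okazaki fragments are trimmed by the flap nuclease FEN1 and sealed by DNA ligase 1. FEN1 was at 28.9 FPKM in tdTom and 28.6 in the group labelled TTP-tdTom (log2 ratio −0.02). LIG1, the gene with the lowest FPKM of the set, was at 4.94 and 3.38, which left 68.4% (−0.55).

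UAUUUAU was present in 20.0% of the 45 genes (9) and in 34.9% of the 11909 expressed symbols with an annotated 3′UTR, at 0.225 and 0.331 copies per kilobase of 3′UTR. The replication genes had shorter 3′UTRs, with a median of 916 bases beside 1236. Of the 9 genes with the heptamer 2 (22.2%) were at least 1.5-fold lower, and of the 36 without it 4 (11.1%) were (GMNN, RFC3, RFC5 and RPA3). The ratio of RPA3 is from a row shared with the non-coding LOC729852, while its 3′UTR is that of a coding transcript. Among all expressed symbols 39.4% of those with the heptamer were at least 1.5-fold lower, and 14.3% of those without. That share was 32.7% with 1 copy, 46.2% with 2 and 51.5% with 3 or more, and none of the 45 genes held more than 2. MCM10 and POLA2, with 2 copies each, were at −0.28 and 0.11. A match is a string of letters and says nothing of binding.

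The GC content of the transcript also ran with the ratio. Spearman's rho between the log2 ratio and GC content was 0.29 over the 45 genes and 0.47 over all 11909 symbols, points that share the same libraries and are not independent. In the quintile of symbols with the lowest GC content (31.1 to 40.8%) the median log2 ratio was −0.66 and 56.1% were at least 1.5-fold lower. The 7 replication genes in that quintile had a median of −0.28, and 1 of them (RFC3) passed 1.5-fold. In the next quintile (up to 45.3%) the median was −0.37 over all symbols and −0.30 over 14 replication genes. Of these 14 genes 3 passed (GMNN, RFC5 and MCM8), beside 30.9% of all symbols in that quintile. In the middle quintile, RPA3 and ORC6 passed out of 11, beside 16.8% of all symbols. The median there was −0.22 over all symbols and −0.12 over the 11 replication genes. The 13 replication genes in the 2 upper quintiles included 0 that passed, beside 7.22% and 4.16% of all symbols in those quintiles. For the share of A and U in the 3′UTR, rho with the log2 ratio was −0.34 over the 45 genes and −0.46 over all symbols. Of the 6 genes at least 1.5-fold lower, 5 had a share above the median of the 45 (GMNN, RFC3, RPA3, MCM8 and RFC5). For RPA3 the 3′UTR and GC content are those of a coding transcript, while the ratio is from the row shared with LOC729852. The part of base composition in these differences was not tested.

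**Figure D5:**
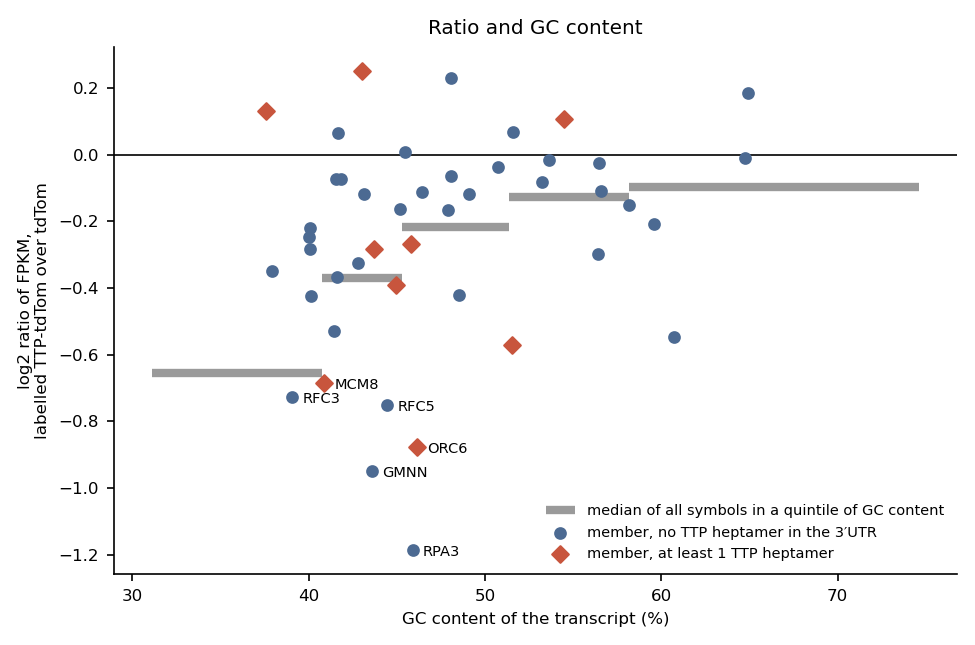
Log2 ratio of FPKM in the group labelled TTP-tdTom over tdTom (y axis) against the GC content of the transcript in percent (x axis) for the 45 genes, with diamonds for the 9 that hold UAUUUAU in the 3′UTR. Grey bars are the medians of all symbols in each quintile of GC content, and most of the replication genes with under 41% GC lie above the bar at −0.66.

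E2F motifs were searched in the promoters of these genes. The spellings of the E2F site TTTCCCGC, TTTGGCGC, TTTCGCGC and TTTGCCGC were searched on both strands in the window from 250 bases before to 50 after the gene start. RefSeq promoter sequences (GRCh38.p14) were matched for 39 of the 45 genes, all but GINS4, MCM4, MCM5, POLD3, RPA2 and RPA3. A motif was found in 18 of the 39 (46.2%), and in 3.33% of all 27305 promoters, which were not limited to expressed symbols. The examples below are from the MCM ring, from the clamp, and from 2 of the genes that were at least 1.5-fold lower, written 5′ to 3′ on the strand of the gene, with capitals for the match on either strand.
MCM2: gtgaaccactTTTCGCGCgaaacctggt
MCM3: gttcggaagtTTTCGCGCcggggtggag
MCM6: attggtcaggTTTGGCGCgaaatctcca
MCM7: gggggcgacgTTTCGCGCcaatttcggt
PCNA: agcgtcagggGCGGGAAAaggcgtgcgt
MCM8: gatcactgaaGCGCCAAAaaagaattta
RFC3: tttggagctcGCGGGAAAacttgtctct

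In GRCh38.p14 these windows are chr3:127598403-127598430 (MCM2, plus strand), chr6:52284729-52284756 (MCM3, minus), chr2:135876516-135876543 (MCM6, minus), chr7:100101389-100101416 (MCM7, minus), chr20:5126664-5126691 (PCNA, minus), chr20:5950668-5950695 (MCM8, plus) and chr13:33818084-33818111 (RFC3, plus). The MCM2 and MCM6 windows are each followed by an overlapping match on the other strand, and MCM3, MCM6 and MCM7 hold further matches upstream of those printed. With the motif, 2 of 18 genes were at least 1.5-fold lower (MCM8 and RFC3) and the median log2 ratio was −0.16. Without it, 3 of 21 were lower (ORC6, GMNN and RFC5) and the median was −0.22. Both medians are above the −0.23 of all expressed symbols, of which 22.8% were at least 1.5-fold lower. Those symbols were taken with or without a matched promoter or motif.

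A wider list of 36 accessory replication genes (checkpoint mediators, chromatin assembly factors, topoisomerases, alternative clamp loaders and others) was all expressed, and 11 of them (30.6%) were at least 1.5-fold lower in the group labelled TTP-tdTom, with 0 higher, beside 22.8% lower and 3.9% higher among all expressed symbols. Their median log2 ratio was −0.37, beside −0.23 for all. Centred on that median, 6 of the 36 were at least 1.5-fold lower, beside 13.6% of all symbols. The lowest 5 were the histone chaperone ASF1A, whose symbol is on 5 rows, at 12.0 FPKM in tdTom and 5.10 in the group labelled TTP-tdTom (−1.23), the MCM-binding protein MCMBP at 17.5 and 8.91 (−0.97), DSCC1 of an alternative clamp loader at 19.9 and 10.2 (−0.97), topoisomerase TOP1 at 123.0 and 66.2 (−0.89), and the PCNA unloader ATAD5 at 5.52 and 3.06 (−0.85). The highest 5 were CHTF8 at 23.2 and 25.5 (0.13), CHAF1B at 11.6 and 12.2 (0.08), POLE4 at 19.4 and 20.2 (0.06), ASF1B at 87.6 and 85.7 (−0.03) and RECQL4 at 15.2 and 14.4 (−0.08). Whether the accessory genes differ from the 45 was not tested.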

How the data were processed

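RNA from 6 PC-3 samples, 3 per group, was sequenced as strand-specific paired-end libraries. The authors aligned reads to human build GRCh37 (Hs37D5) with TopHat2 (2.0.13 in the submitters' processing notes) and compared the groups with Cufflinks (2.2.1), and deposited a gene-level table with 1 FPKM per group and locus. The p-value, q-value, test statistic and log2 fold change columns deposited by the authors hold their own comparison and were not used. Columns of values per sample that were left aside number 0. FPKM pools the 3 samples, so sample depth, replicate agreement and outliers could not be examined.

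Ratios were computed here as log2 of FPKM in the group labelled TTP-tdTom over tdTom, with a pseudocount of 0, for symbols with at least 1 FPKM in at least one group and above 0 in both. A gene was called at a ratio of 1.5-fold. The limma test planned for values per sample was not run, since there is 1 value per group. GENCODE 29 transcripts (GRCh38) gave 3′UTRs, with 43 of the 45 genes matched by RefSeq name and 2 by symbol, and 91.6% of the 13004 expressed symbols matched. RefSeq promoters (GRCh38.p14) gave promoter windows. Neither was used for GRCh37 coordinates. Start coordinates were counted from 1. Python 3.11.15, numpy 2.4.6, pandas 2.3.3 and matplotlib 3.10.9 were used, and the script that makes the calls was tested on simulated data.

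The 45 genes, the accessory list, the markers and the sequence features were chosen with earlier results of these data known. The rule for named genes took all 45, the 5 lowest and 5 highest of the accessory genes, and ZFP36. One marker gene is not reported here. Of the 45 genes, 7 share a locus span with another expressed symbol, and such neighbours were named after their values were seen. The alternatives tried were other thresholds, FPKM minimums, pseudocounts, scalings and choices of row.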

Additional observations from a re-analysis of the deposited data

How the results depend on the processing

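No paired analysis was possible because the table holds 1 FPKM per group, and for the same reason neither a replicate block nor leaving out a sample could be run. Centring moved log2 ratios up by 0.23. At least 1.5-fold lower were then 3 of the 45 genes (ORC6, GMNN and RPA3) beside 13.6% of all symbols, and 6 of 36 accessory genes, while the median of the 45 genes became 0.069. MCM8, RFC3 and RFC5 no longer passed, and 17 genes that had not passed changed sign. At 2-fold, 1 of the 45 genes (RPA3) and 1 of the 36 accessory genes (ASF1A) were lower, beside 8.65% of all expressed symbols. RPA3 did not pass 2-fold in its row with the highest FPKM or when its rows were summed. Without RPA3, 5 of 44 genes (11.4%) were at least 1.5-fold lower and 0 were at least 2-fold lower. Under the other alternatives (2 FPKM minimums, 2 pseudocounts, rescaling to equal sums, and 2 ways to treat symbols with several rows) the count was 5 or 6, the median between −0.21 and −0.11, and the accessory count between 9 (of the 29 with 10 FPKM) and 11, while 17.9% to 26.7% of all symbols were lower. A minimum of 10 FPKM left 35 of the 45 genes and dropped RPA3, and the highest-FPKM row also took RPA3 out of the count. Under none of the alternatives was any of the 45 genes at least 1.5-fold higher. Rescaling, by 0.05 on the log2 scale, changed the sign of 4 genes near 0 (MCM7, ORC1, POLD1 and FEN1). With 1 value per group, no setting says how far the samples varied.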
